A study of Mus musculus with 6 samples.

Results

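The MS4A genes encode small proteins that cross the cell membrane several times, and they sit side by side in one cluster of the mouse genome. The best known is Ms4a1, which encodes CD20, the B cell surface protein targeted by therapeutic antibodies. Others are carried by T cells, by monocytes and macrophages or by mast cells, where they associate with immune receptors, as Ms4a2 does as a chain of the high-affinity IgE receptor. The 7 members described here are Ms4a1, Ms4a4b, Ms4a4c, Ms4a6b, Ms4a6c, Ms4a6d and Ms4a7, found by symbol among the 32285 genes of the count files. They were chosen by their levels across cell classes in these same libraries, so those levels are a description, with no test.

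The data were single-cell RNA counts of orthotopic pancreatic tumours. KPC cells, a pancreatic cancer line from a Pdx1-cre mouse model of the disease, carried a lentiviral MLKL overexpression construct (OE-MLKL) or the empty vector (OE-Vector) and were injected into the pancreas of wild-type C57BL/6 mice aged 6 to 8 weeks. Tumours were taken 4 weeks later, so the immune cells were those of the host and carried no construct. Matrices of 4 of the 6 libraries were analysed here, namely OE-Vector 1 and OE-MLKL 1, 2 and 3, and the matrices of OE-Vector 2 and 3 were not analysed here. With 1 OE-Vector library, a difference between the groups cannot be told apart from a difference between 2 tumours.

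Total counts lay between 150591289 and 169978362 unique molecular identifiers (UMIs, 1 per captured transcript), and 13489 to 18808 cells per library were kept. Pairs of libraries shared 55 to 91 cell barcodes, which was at most 0.6005% of the cells of a library. Mlkl over all kept cells was at 13.4 CPM (counts per 1e6 UMIs) in OE-Vector 1 and at 7.95, 12.0 and 15.7 CPM in OE-MLKL 1, 2 and 3. Gated cancer cells numbered 127 to 260 per library, or 0.942% to 1.38% of the kept cells. In this small part of each library Mlkl was at 16.6 CPM and at 11.7, 14.5 and 19.3 CPM in the same order, on 58, 22, 53 and 59 UMIs. Over all cells it was thus not higher than OE-Vector 1 in the libraries labelled OE-MLKL 1 and 2. Whether the construct's transcript is counted under Mlkl is not given in the sources used here, and the group names below are those of the labels.

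All 7 members lie on chromosome 19 between bases 11249675 and 11604849 (GRCm38), a stretch of 355175 bases that holds 20 annotated genes, 12 of them protein-coding. Ms4a1 (ENSMUSG00000024673, chr19:11249675-11266241) and Ms4a7 (ENSMUSG00000024672, chr19:11321039-11336146) are on the minus strand. They are followed on the plus strand by Ms4a4c (ENSMUSG00000024675, chr19:11404770-11427246), Ms4a4b (ENSMUSG00000056290, chr19:11443553-11467055), Ms4a6c (ENSMUSG00000079419, chr19:11469366-11482192) and Ms4a6b (ENSMUSG00000024677, chr19:11516512-11531256). Ms4a6d (ENSMUSG00000024679, chr19:11586604-11604849) closes the row on the minus strand. The neighbours Ms4a4b and Ms4a4c had 91.7% identical bases over coding sequences of 678 bases each. Ms4a6b and Ms4a6c had 86.4% over 641 aligned coding bases, and Ms4a6b and Ms4a6d had 81.8% over 729. Across the other pairs of members the share was 60.8% to 79.6% of aligned bases. Of the windows of 91 bases in the last 400 bases of each member's transcript with the longest coding sequence, 6 of 310 in Ms4a6c also occurred in a transcript of another family gene, and none of 310 in each of the other 6 members did. Over shorter windows of 30 bases, 100 of 371 in Ms4a4c and 75 of 371 in Ms4a6c were shared in this way. Ms4a1, Ms4a4c, Ms4a6b and Ms4a6c each overlap an annotated gene on the opposite strand.

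Ms4a4b and Ms4a4c are shown because their promoters were alike and their cell classes were not. RefSeq promoter sequences (GRCm38.p6, from 250 bases before to 50 bases after the start) were found for 5 of the 7 members. The window of Ms4a4b is chr19:11443308-11443607 and that of Ms4a4c is chr19:11407411-11407710, both on the plus strand. Capitals mark aligned stretches of at least 10 identical bases.
Ms4a4b: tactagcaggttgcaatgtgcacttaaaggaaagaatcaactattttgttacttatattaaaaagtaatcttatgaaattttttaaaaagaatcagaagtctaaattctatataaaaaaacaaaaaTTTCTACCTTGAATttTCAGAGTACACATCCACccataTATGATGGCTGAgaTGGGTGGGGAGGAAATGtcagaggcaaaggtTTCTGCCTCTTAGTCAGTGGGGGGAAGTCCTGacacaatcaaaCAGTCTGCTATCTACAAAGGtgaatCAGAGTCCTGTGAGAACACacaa
Ms4a4c: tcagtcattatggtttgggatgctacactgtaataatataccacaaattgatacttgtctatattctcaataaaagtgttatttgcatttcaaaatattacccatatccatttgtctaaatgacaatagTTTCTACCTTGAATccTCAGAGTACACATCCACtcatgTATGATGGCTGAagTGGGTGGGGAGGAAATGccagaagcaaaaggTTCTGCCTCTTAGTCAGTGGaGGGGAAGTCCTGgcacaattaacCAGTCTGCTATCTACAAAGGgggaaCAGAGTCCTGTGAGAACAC

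The windows of Ms4a4b and Ms4a4c shared 230 identical bases, 76.7% of their length. Of these, 131 lay in 8 aligned runs of 12 to 20 bases. Neighbouring runs print as 1 stretch of capitals in Ms4a4b where the bases between them are in Ms4a4c alone. The pair Ms4a6b (chr19:11518309-11518608) and Ms4a6c (chr19:11469118-11469417), also on the plus strand, is shown because both were high in macrophages and monocytes. They were not alike in T cells, where Ms4a6b was at 157 to 298 CPM and Ms4a6c at 11.7 to 23.6 CPM.
Ms4a6b: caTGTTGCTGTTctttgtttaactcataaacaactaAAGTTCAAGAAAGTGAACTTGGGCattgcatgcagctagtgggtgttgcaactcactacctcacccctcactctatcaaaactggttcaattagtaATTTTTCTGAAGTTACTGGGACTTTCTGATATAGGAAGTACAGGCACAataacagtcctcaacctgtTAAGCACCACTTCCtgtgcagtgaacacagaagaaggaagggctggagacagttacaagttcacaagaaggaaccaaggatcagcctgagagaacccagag
Ms4a6c: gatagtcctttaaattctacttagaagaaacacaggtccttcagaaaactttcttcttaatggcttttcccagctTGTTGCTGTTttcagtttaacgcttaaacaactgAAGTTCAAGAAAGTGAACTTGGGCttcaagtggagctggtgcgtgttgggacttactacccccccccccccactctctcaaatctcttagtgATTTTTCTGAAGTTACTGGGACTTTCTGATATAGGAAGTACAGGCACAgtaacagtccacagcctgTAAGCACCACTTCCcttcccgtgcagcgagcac

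These shared 192 identical bases, 64.0% of the window, with an unbroken run of 48 bases that starts 118 bases before the start site in Ms4a6b and 49 bases before it in Ms4a6c. Promoter windows of members that are not such a pair had 51.0% to 57.7% identical bases. Motifs were searched on both strands. They were the interferon-stimulated response element (GAAA, any 2 bases, GAAA), the ETS-IRF composite element (GGAA, any 2 bases, GAAA), a PU.1-type ETS site (GAGGAAGT) and the AP-1 site (TGANTCA). The 4 windows printed held 1 match, an AP-1 match at base 23 after the start of Ms4a4b, where both strands fit the letters. Among all 32851 promoter entries of the table, 7.81% held the AP-1 letters, and 3.44%, 2.72% and 3.202% held the other 3 motifs in the order given.

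Cells were assigned to a class by their markers, none of them an MS4A gene. A marker counted as present at 3 times or more its level in near-empty barcodes (100 UMIs or fewer) of the same library, and a class needed 3 markers and no rival class with more than 50% as many. Across OE-Vector 1 and OE-MLKL 1, 2 and 3 this gave 1681, 2332, 2073 and 2588 macrophages, 987, 554, 630 and 827 T cells and 5941, 4981, 7373 and 6039 neutrophils. The smaller classes were monocytes with 131, 27, 45 and 25 cells, B cells with 122, 72, 57 and 47, and dendritic cells with 114, 60, 65 and 195. Of 30 markers kept out of the gates, 23 were highest in their own class among the 6 in all 4 libraries. Outside the 6, Fn1 had a higher median in fibroblasts than in monocytes, Pou2af1 in plasma cells than in B cells and Skap1 in NK cells than in T cells. The exceptions among the 6 included Fcgr1 for macrophages and Clec4e, Msrb1 and Lyz2 for monocytes, so the monocyte gate was the least distinct.

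Levels are UMIs summed over the cells of a class in a library, in CPM of that class, and are compared between classes and not between genes. Restriction to a class was summarised by tau, which is 0 for equal levels in the 6 classes and 1 for a level in 1 class alone. Ms4a1, Ms4a4b and Ms4a7 had tau medians over the 4 libraries of 0.9996, 0.983 and 0.977. Ms4a4c, Ms4a6b, Ms4a6c and Ms4a6d had 0.792, 0.763, 0.827 and 0.827. The first set was thus near 1 class each, and the second was spread more widely.

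**Figure D1:**
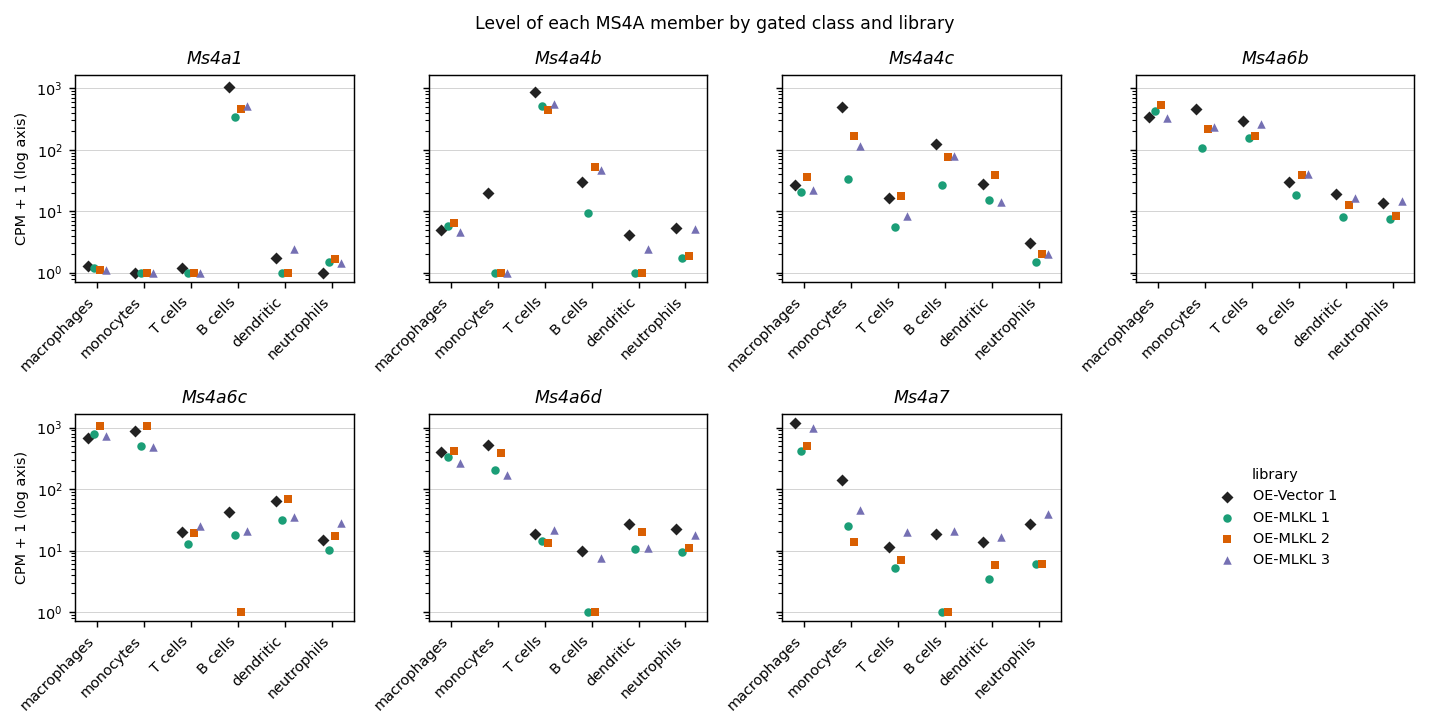
Level of each member (CPM plus 1, log axis) in 6 gated classes, with 1 point per library (black diamond OE-Vector 1, coloured points OE-MLKL 1, 2 and 3). Ms4a1 stands in B cells, Ms4a4b in T cells and Ms4a7 in macrophages, while Ms4a6b is at 104 CPM or more in macrophages, monocytes and T cells and under 40 CPM in the other 3 classes.

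Ms4a1 was a B cell gene in every library. Its level in gated B cells was 1070 CPM in OE-Vector 1 and 341, 460 and 513 CPM in OE-MLKL 1, 2 and 3. In the other 5 classes the highest value in any library was 1.40 CPM, in dendritic cells of OE-MLKL 3. B cells held 75.0% to 93.4% of all its UMIs although they were among the smallest classes. The share of B cells with at least 1 UMI was 82.0% in OE-Vector 1 and 31.9%, 47.4% and 78.7% in the OE-MLKL libraries, at median depths of 1923.5, 908.5, 859 and 1787 UMIs per cell. At an equal depth of 500 UMIs per cell the expected shares were 40.7%, 19.6%, 28.2% and 29.8%. In plasma cells, which stop making CD20 as they mature, the level was 6.43 CPM in OE-Vector 1, listed at 0 in OE-MLKL 1 and 2 and 17.6 CPM in OE-MLKL 3, on 7 to 14 cells.

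Ms4a4b, known for modulating T cell activation and proliferation, stood at 875 CPM in T cells of OE-Vector 1 and at 515, 444 and 557 CPM in those of OE-MLKL 1, 2 and 3. B cells came next at 8.53 to 51.1 CPM, and the T cell range lay wholly above theirs. The remaining 4 classes were at 0 to 19.04 CPM, and monocytes, macrophages, neutrophils and dendritic cells overlapped in that range. Free RNA, measured in barcodes of 100 UMIs or fewer, held 8.88 to 28.5 CPM of it, which was above the level in each of those 4 classes in every library. NK cells carried it too, at 1612 CPM in the 42 cells of OE-Vector 1 and at 506 and 477 CPM in the 18 and 72 cells of OE-MLKL 2 and 3. The 1 NK cell of OE-MLKL 1 had none.

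Within T cells, Ms4a4b followed the subset. CD8 T cells (Cd8a or Cd8b1 present, Cd4 absent) had 978 CPM in OE-Vector 1 and 575, 520 and 611 CPM in OE-MLKL 1, 2 and 3. Cd4 T cells without Foxp3 had 886 CPM in OE-Vector 1 and 161, 345 and 410 CPM in the others. Cells with Foxp3, the factor of regulatory T cells, had 132, 59.7, 20.01 and 41.0 CPM, on 62, 22, 53 and 57 cells. The 3 subsets kept this order in each of the 4 libraries. The Foxp3 values of the OE-MLKL libraries rest on 4, 3 and 7 UMIs.

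Ms4a4c, the neighbour of Ms4a4b, had its highest value in monocytes in each library. The values were 493 CPM in OE-Vector 1 and 32.1, 165 and 114 CPM in OE-MLKL 1, 2 and 3. B cells followed with 123, 25.6, 76.7 and 79.0 CPM, below monocytes in each library, although the ranges of the 2 classes overlapped. In OE-MLKL 1 the order was not resolved, with 4 UMIs in monocytes (95% Poisson interval 8.74 to 82.1 CPM) and 3 in B cells (5.28 to 74.8 CPM), and macrophages at 19.2 CPM. Macrophages at 19.2 to 35.4 CPM and dendritic cells at 13.1 to 37.8 CPM could not be placed in order. T cells were at 4.58 to 16.8 CPM and neutrophils at 0.501 to 2.05 CPM. In the first 5 of these classes the level was above that of free RNA (3.24 to 10.6 CPM) in all 4 libraries. Macrophages held 33.6% of its UMIs in OE-Vector 1, where monocytes held 24.7%, and 63.0% to 70.1% in the OE-MLKL libraries.

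Macrophages with interferon-induced transcripts carried more Ms4a4c. Those with at least 3 of 9 interferon-induced genes (Isg15, Ifit1, Ifit3 and others) had 107 CPM in OE-Vector 1 and 119, 148 and 88.4 CPM in OE-MLKL 1, 2 and 3. Macrophages with none of the 9 had 17.8, 14.4, 28.4 and 18.5 CPM, so the 2 ranges did not overlap. Monocytes of OE-Vector 1 had 893 CPM with at least 3 of the genes (30 cells) and 297 CPM with none (50 cells). The OE-MLKL libraries held 0, 5 and 4 such monocytes, with 153 CPM (4 UMIs) in OE-MLKL 2 and 340 CPM (7 UMIs) in OE-MLKL 3, against 156 and 95.3 CPM with none of the genes. T cells of OE-Vector 1 had 91.4 CPM with at least 3 of the genes (8 UMIs in 19 cells) and 13.7 CPM with none, and the 3 and 4 such T cells of OE-MLKL 1 and 3 had no UMI. Neutrophils with at least 3 of the genes had 3.84 CPM of Ms4a4c in OE-MLKL 3 and no UMI in each of the other libraries, against 0.591 to 2.55 CPM in those with none, on too few UMIs to place them in order. The genes most like Ms4a4c over the 24 sums of class and library were Ifi209 (Pearson r of log2(CPM + 1) 0.841), Hpse (0.804) and Ifi203 (0.794), of which Ifi209 and Ifi203 belong to the interferon-inducible p200 family.

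The 3 Ms4a6 genes shared macrophages and monocytes. Ms4a6c was at 690 CPM in macrophages of OE-Vector 1 and at 783, 1057 and 741 CPM in those of OE-MLKL 1, 2 and 3. In monocytes it was at 891, 497, 1073 and 492 CPM, so neither class was above the other in every library. Dendritic cells came next, at 30.9 to 68.5 CPM, below both. B cells, T cells and neutrophils were at 0 to 40.8 CPM with overlapping ranges. All of these lay under the free RNA level of Ms4a6c, 82.4 to 134 CPM.

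Ms4a6d, whose product is known to associate with the VSIG4 receptor of macrophages, was at 395 CPM in macrophages of OE-Vector 1 and at 332, 421 and 268 CPM in those of OE-MLKL 1, 2 and 3. Monocytes had 517, 200.5, 387 and 167 CPM. The other 4 classes were at 0 to 25.9 CPM, under the free RNA level of 51.7 to 90.2 CPM in each library. Endothelial cells differed from these, with 139 CPM in OE-Vector 1 and 110, 135 and 117 CPM in OE-MLKL 1, 2 and 3, above free RNA in all 4 libraries. They numbered 38, 17, 44 and 29 cells.

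Ms4a6b, like Ms4a4c, was found in both myeloid and T cells. Macrophages had 341, 424, 525 and 327 CPM in OE-Vector 1 and OE-MLKL 1, 2 and 3. Monocytes had 457, 104, 216 and 235 CPM, and T cells had 298, 157, 169 and 258 CPM. Monocytes overlapped in range with both others, while macrophages were above T cells in each library with no overlap. Each of the 3 classes was above free RNA (51.1 to 78.1 CPM) in all 4 libraries. B cells at 17.1 to 39.5 CPM, dendritic cells at 7.13 to 18.3 CPM and neutrophils at 6.51 to 13.9 CPM lay below free RNA. Within T cells the Foxp3 subset was again lowest in each library, at 209, 105, 120 and 176 CPM, against 282, 154, 169 and 245 CPM in CD8 T cells. Cd4 T cells without Foxp3 were highest, at 382, 182, 179 and 386 CPM, which is not the order seen for Ms4a4b. The step between the subsets was smaller than for Ms4a4b.

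Ms4a7, a gene of tissue macrophages, was at 1178 CPM in macrophages of OE-Vector 1 and at 421, 502 and 970 CPM in those of OE-MLKL 1, 2 and 3. OE-Vector 1 and OE-MLKL 3 were thus near each other, and OE-MLKL 1 and 2 were lower. Free RNA followed the same order of libraries, with 183, 54.7, 56.1 and 179 CPM. Every other class of the 6 was below free RNA in every library, monocytes with 140, 24.1, 12.7 and 45.4 CPM included. The ranges of monocytes and macrophages did not overlap for Ms4a7, while they did for each Ms4a6 gene. Macrophages held 89.9% to 94.1% of all UMIs of Ms4a7.

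Among macrophages the members varied with other macrophage genes. Cells with Cx3cr1, the fractalkine receptor, had more Ms4a7 than cells without a UMI of it, 1234 against 1001 CPM in OE-Vector 1 and 494 against 403, 555 against 406 and 1031 against 540 CPM in OE-MLKL 1, 2 and 3. Cells with Arg1, the arginase of alternatively activated macrophages, had less Ms4a7 than cells without, 1087 against 1193, 327 against 500.3, 430 against 582 and 784 against 1079 CPM. For Ms4a6d the direction was the other way, with 464 against 322 CPM in OE-Vector 1 and 340 against 327, 426 against 405 and 319 against 230 CPM in the OE-MLKL libraries. Ms4a6b went with Ms4a7, at 277 CPM with Arg1 against 411 CPM without in OE-Vector 1 and 367 against 485, 482 against 574 and 301 against 331 CPM in the others. Each of these differences had the same sign in 4 of 4 libraries. With Cx3cr1 against without, medians over the libraries were also higher for Ms4a6b (456 against 316 CPM) and Ms4a6c (826 against 661 CPM). Those of Ms4a6d were 346 against 363 CPM. A split by the presence of a gene can also divide cells by depth, and its part was not tested.

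Genes with the most similar pattern over the same 24 sums were named for each member, leaving out gate markers and the MS4A family itself, and these sums share libraries and classes. For Ms4a1 they were Vpreb3 (r 0.993), a gene of the B lineage, Gm31243 and Gm47828. For Ms4a4b they were Sh2d2a (r 0.942), a T cell adaptor, Cd2 (0.935), an adhesion receptor of T and NK cells, and Gimap7 (0.918). Ms4a6b was nearest to Maf (r 0.915), a transcription factor used by macrophages and T cells, then Bscl2 and Elk3. Ms4a6c was nearest to Stom (0.943), Ptpro and Pid1, and its r with Ms4a6d, which the ranking left out, was 0.937. Ms4a6d was nearest to Clec4a3 (0.951), a myeloid lectin, Hmox1 (0.939), haem oxygenase, and Dab2 (0.934), an endocytic adaptor. Ms4a7 was nearest to the chemokine Ccl7 (0.931), the protease cathepsin B gene Ctsb (0.922) and Fcrls (0.917). Ms4a4b and Ms4a4c, for all their likeness in sequence, had r -0.02 with each other.

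Of the 12 other MS4A genes, Ms4a2 was found in gated mast cells and basophils. It was at 400.2 CPM in OE-Vector 1, at 436 CPM in OE-MLKL 1, listed at 0 in the 2 cells of OE-MLKL 2, and at 604 CPM in OE-MLKL 3. Ms4a8a was highest in monocytes at 55.4, 200.5, 248 and 114 CPM, with 8.95 to 69.7 CPM in macrophages. Ms4a4a in macrophages was at 19.5, 37.9, 31.2 and 18.1 CPM, with 0 to 32.9 CPM in monocytes. Ms4a14 was at 14.3 to 32.4 CPM in macrophages. Ms4a4d was found in fibroblasts at 13.3 to 26.3 CPM. Ms4a3, a gene of granulocyte precursors, stayed below 8 CPM in each of the 12 gates. The related Tmem176a, which lies on chromosome 6 with Tmem176b, was at 42.3 to 96.2 CPM in neutrophils and at 253 to 838 CPM in cancer cells. Free RNA held 258 to 586 CPM of Tmem176a, above neutrophils in every library and overlapping the range of cancer cells.

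**Figure D2:**
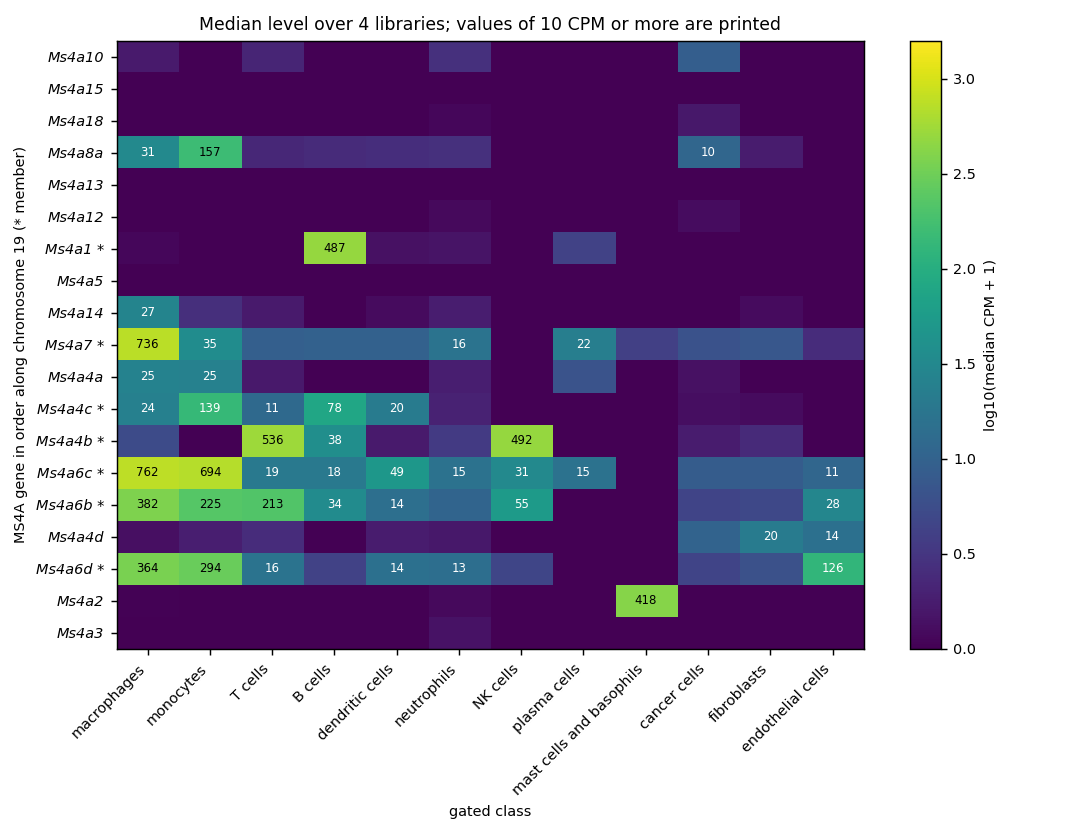
Median level over the 4 libraries (log10 of CPM plus 1, colour) of all 19 MS4A genes in order along chromosome 19 by 12 gated classes, with values of 10 CPM or more printed. Some neighbouring genes differ in their class, as Ms4a4c in monocytes, Ms4a4b in T and NK cells and Ms4a6c in macrophages and monocytes. Others share classes, as Ms4a6c and Ms4a6b in macrophages and monocytes.

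Receptors that MS4A proteins have been linked with were read beside them. Trem2, a lipid receptor of macrophages, was at 509 CPM in macrophages of OE-Vector 1 and at 474, 612 and 496 CPM in those of OE-MLKL 1, 2 and 3, and lower in monocytes, at 79.6 to 182 CPM. Its adaptor Tyrobp was at 2220 to 2730 CPM in macrophages and at 5260 to 7152 CPM in neutrophils, where the Ms4a6 genes and Ms4a7 were at or under 39.1 CPM. Tnfrsf18, which encodes GITR, a T cell receptor of the tumour necrosis factor family, was at 236, 229, 295 and 192 CPM in T cells. Trem2, Tyrobp and Tnfrsf18 did not pass the test between OE-MLKL and OE-Vector in the classes where each could be tested. Of all genes, that test called 0% in dendritic cells and neutrophils and at most 3.3%, in B cells.

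The second question was whether the members differed between the libraries labelled OE-MLKL and OE-Vector 1 in each class. Counts summed per class were tested with edgeR's quasi-likelihood test over all genes, with Benjamini-Hochberg adjustment at 0.05. The spread came from the 3 OE-MLKL libraries, which leave 2 residual degrees of freedom. edgeR also drew the spread of each gene toward that of the other genes in the class. A p-value thus does not measure the spread of 1 member between these samples alone, and none covers spread between OE-Vector tumours. Members passed the test in monocytes and in no other class. Fewer cells of a subset and less RNA per cell cannot be told apart in such sums.

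In monocytes 2 of 5 members tested were called, against 1.61% of all 3478 genes tested. Ms4a4c was at 493 CPM in OE-Vector 1 and at a mean of 104 ± 67.1 (SD, n = 3) in the OE-MLKL libraries. Its log2 fold change was -2.25 ± 0.48 (SE, adjusted p = 0.00112 by edgeR), and the OE-Vector value is that of 1 tumour. Ms4a7 was also called, at 140 CPM against 27.4 ± 16.6 (SD, n = 3), with a log2 fold change of -2.39 ± 0.64 (SE, adjusted p = 0.0206 by edgeR). It reached the count filter (69.1 CPM) through OE-Vector 1 alone and was below free RNA in all 4 libraries, so no difference is read from that call. Ms4a4c reached the filter in 2 of the OE-MLKL libraries too. Ms4a6b had -1.33 ± 0.47 (adjusted p = 0.180), Ms4a6d had -1.03 ± 0.48 (adjusted p = 0.534) and Ms4a6c had -0.38 ± 0.52 (adjusted p = 0.991), by the same edgeR fit. Of the 6 members at 10 CPM or more in a library, 5 were higher in OE-Vector 1 than in all 3 OE-MLKL libraries, as were 21.4% of all genes tested, and none was lower than all 3, as were 22.6%. 1 of the 5, Ms4a4b, met the 10 CPM through OE-Vector 1 alone (11 UMIs against 0), which fixed its side. Ms4a4b was also under free RNA there and too low for the test. For Ms4a6c OE-MLKL 2 was highest.

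The monocyte values rest on few UMIs. Ms4a4c had 285 UMIs in OE-Vector 1 against 4, 26 and 15 in the OE-MLKL libraries, and Ms4a7 had 81 against 3, 2 and 6. Both calls were lost with DESeq2 (adjusted p = 0.604 for Ms4a4c and 0.9996 for Ms4a7), with genes at a mean of 20 UMIs or more (0.242 and 0.238 by edgeR) and without OE-MLKL 1 (0.0913 and 0.0893 by edgeR). That of Ms4a7 was also lost without OE-MLKL 2 (adjusted p = 0.181 by edgeR), with limma-voom (0.529) and with 4 markers in the gate (0.994 by edgeR). Both fold changes stayed below 0 under each of these settings. DESeq2, the mean of 20 UMIs and the fit without OE-MLKL 1 called 0.115%, 0.101% and 0.254% of all genes. Monocytes of OE-Vector 1 also differed in other ways. Their summed level of the 9 interferon-induced genes was 1291 CPM, against 128, 546 and 621 CPM in the OE-MLKL libraries, and their summed monocyte markers were at 6997 CPM against 2775 to 3949 CPM. The gate marker Plac8 was at 3762 CPM against 601 to 954 CPM. Among monocytes with none of the 9 interferon genes, Ms4a4c was still at 297 CPM in OE-Vector 1 against 35.2, 156 and 95.3 CPM. The part of these markers, and of free RNA for Ms4a7, in the difference was not tested.

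**Figure D3:**
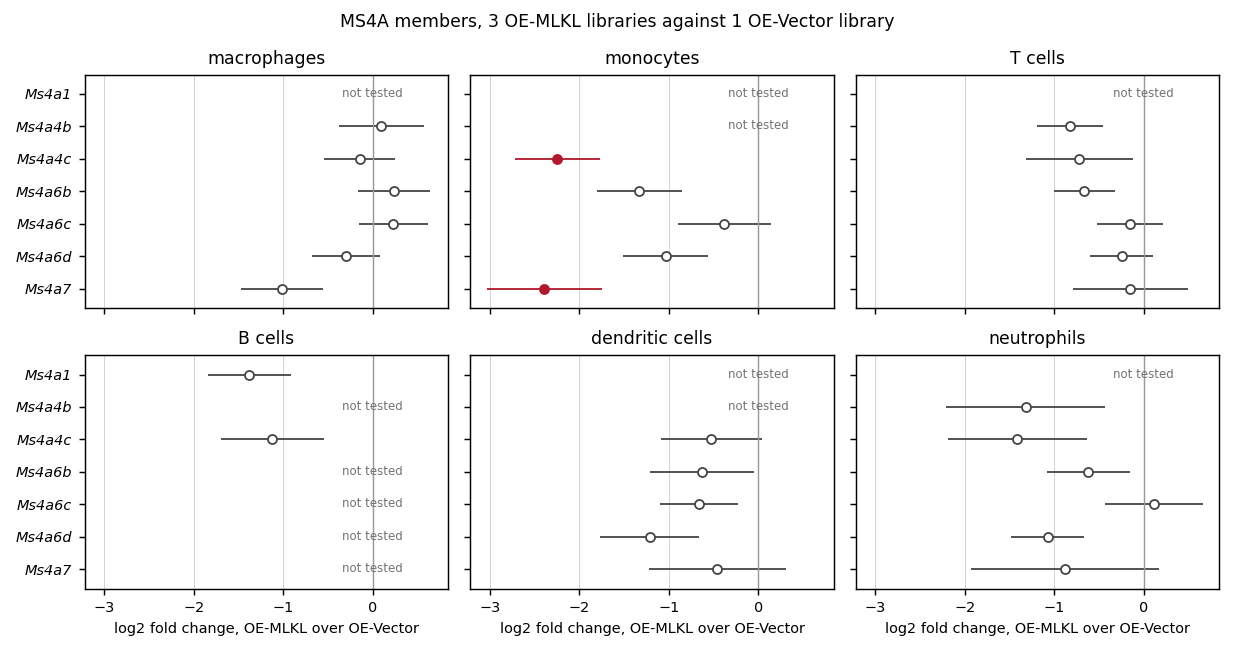
Log2 fold change of each member, OE-MLKL over OE-Vector, with its standard error in 6 classes, from 3 OE-MLKL libraries and 1 OE-Vector library. Filled red points (Ms4a4c and Ms4a7 in monocytes, the latter over the count filter in OE-Vector 1 alone) had an adjusted p under 0.05, open points did not, and members too low for the test are marked.

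In macrophages 0 of 6 members were called, against 0.00747% of 13382 genes tested, and no member had an unadjusted p under 0.05. Ms4a7 had a log2 fold change of -1.01 ± 0.46 (adjusted p = 0.899 by edgeR), with the OE-MLKL libraries at 631 ± 296 CPM (SD, n = 3) and OE-MLKL 3 close to OE-Vector 1. Ms4a6c had 0.23 ± 0.39 (adjusted p = 0.953) and Ms4a6d had -0.30 ± 0.38 (adjusted p = 0.941), by the same edgeR fit. The 12 macrophage gate markers summed to 34543 CPM in OE-Vector 1 and to 42688, 41962 and 36907 CPM in the OE-MLKL libraries. Apoe alone made 17460 CPM of this in OE-Vector 1 against 28695, 25172 and 21102 CPM, and the other 11 markers summed to 17083 CPM against 13993, 16790 and 15805 CPM. Pf4 was at 2022 CPM against 441, 665 and 388 CPM, and these markers were singled out after their values were seen. Median depth was 8474 UMIs per cell against 4018, 4657 and 6919.5. Their part in the values of Ms4a7, and that of free RNA, was not tested. Of 5 members at 10 CPM or more, Ms4a7 was higher in OE-Vector 1 than in all 3 OE-MLKL libraries, as were 18.9% of genes, and Ms4a6c was lower than in all 3, as were 33.6%. In macrophages and in the 4 classes that follow, DESeq2 and limma-voom also called 0 members. Of all genes, DESeq2 called 0.426% in macrophages and 0.069%, 0.531%, 0% and 0.602% in T cells, B cells, dendritic cells and neutrophils. The share with limma-voom was 1.83% in B cells and 0% in the others. The edgeR fit called 0.00747% in macrophages and 0.00862% in T cells. Where 0% or so few of all genes were called, the 0 members say nothing about the family.

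In T cells 0 of 6 members were called, against 0.00862% of 11595 genes, and none had an unadjusted p under 0.05. Ms4a4b was at 875 CPM in OE-Vector 1 and at 505 ± 57.4 (SD, n = 3) in the OE-MLKL libraries, which gave -0.82 ± 0.37 (adjusted p = 0.999 by edgeR). Ms4a6b had -0.67 ± 0.34 (adjusted p = 0.999 by edgeR). These 2 were higher in OE-Vector 1 than in all 3 OE-MLKL libraries, as were 18.3% of genes, and no member was lower than all 3, as were 25%. The OE-MLKL values of Ms4a4b lay close together, and without OE-MLKL 3 both genes passed the test (adjusted p = 0.0285 and 0.0111 by edgeR), in a fit that called 8.29% of 10759 genes. The 7 NK cell markers summed to 4053 CPM in T cells of OE-Vector 1 and to 471, 869 and 1954 CPM in the OE-MLKL libraries, and their part in the difference was not tested.

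In B cells 0 of 2 members were called, against 3.3% of 3392 genes. Ms4a1 was at 1070 CPM in OE-Vector 1 and at 438 ± 88.2 (SD, n = 3) in the OE-MLKL libraries. This gave a log2 fold change of -1.38 ± 0.46 (adjusted p = 0.0772 and unadjusted p = 0.00296 by edgeR). OE-Vector 1 was above each OE-MLKL library. Without OE-MLKL 3 Ms4a1 passed the test at -1.44 (adjusted p = 0.000849 by edgeR), where 10.1% of 2615 genes were called. With cells of at least 1000 UMIs and more than 500 genes it passed at -1.98 (adjusted p = 0.00191 by edgeR), where 7.25% of 4193 genes were called. All 11 B cell gate markers were present in each library and summed to 11874 CPM in OE-Vector 1 and to 5877, 7323 and 7576 CPM in the OE-MLKL libraries. Ms4a4c had -1.12 ± 0.58 (adjusted p = 0.493 by edgeR). Of 6 members at 10 CPM or more, 3 were higher in OE-Vector 1 than in all 3 OE-MLKL libraries, as were 20.9% of the genes tested. None was lower than all 3, as were 26.4%. Only 2 of these members, Ms4a1 and Ms4a4c, were among the genes tested. Ms4a6c, also 1 of the 3, was too low for the test, so the shares are not those of genes at its level.

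In dendritic cells 0 of 5 members were called, against 0% of 9444 genes. The largest fold change was that of Ms4a6d, -1.21 ± 0.55 (adjusted p = 0.943 and unadjusted p = 0.0421 by edgeR), and it was the 1 member of the 5 under an unadjusted 0.05. Ms4a6d was under free RNA (51.7 to 90.2 CPM) in dendritic cells of all 4 libraries, as were Ms4a6b, Ms4a6c and Ms4a7. OE-Vector 1 was above all 3 OE-MLKL libraries for 2 of 5 members, Ms4a6b and Ms4a6d, as for 18.6% of genes. It was below all 3 for none, as for 26.9%. Dendritic cells are a mixture, and the few with Cd209a (7, 1, 4 and 3 cells) had 212, 0, 444 and 372 CPM of Ms4a6c against 56.3, 9.10, 21.0 and 25.3 CPM in cells with Xcr1 or Clec9a. The 0 is that of a single cell.

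In neutrophils 0 of 6 members were called, against 0% of 12630 genes. Ms4a6d had -1.08 ± 0.41 (adjusted p = 0.642 and unadjusted p = 0.0370 by edgeR), at 21.6 CPM in OE-Vector 1 and 8.51, 9.86 and 16.9 CPM in the OE-MLKL libraries, all under the free RNA level of those libraries. Of 4 members at 10 CPM or more, Ms4a6d alone was higher in OE-Vector 1 than in all 3 others, as were 16.9% of genes, and none was lower than all 3, as were 40%. Without OE-MLKL 3, 3 members passed the test, namely Ms4a4b at -2.59, Ms4a6d at -1.41 and Ms4a7 at -2.58 (adjusted p = 0.0229, 0.00381 and 3.38e-05 by edgeR). That fit called 14.9% of 12114 genes. Ms4a4b reached its count filter (1.7 CPM) through OE-Vector 1 alone, and all 3 members were under free RNA in neutrophils. Ms4a7 in neutrophils was at 26.2 CPM in OE-Vector 1 and at 5.01, 4.93 and 39.1 CPM in OE-MLKL 1, 2 and 3, and the libraries with the higher values were also those with more of it in free RNA.

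Of the rest of the family and the partners, 1 gene passed the test in the 6 classes. It did so in B cells, where 3.3% of all 3392 genes tested were called. Tmem176b was called in B cells, at 70.0 CPM in OE-Vector 1 against 145, 345 and 336 CPM in OE-MLKL 1, 2 and 3 (log2 fold change 1.85 ± 0.57, adjusted p = 0.0352 by edgeR), and free RNA held 447 to 722 CPM of it. B cells were thus below free RNA in every library, and no rise is read from that call. The call was lost with DESeq2 (adjusted p = 0.394) and without OE-MLKL 1 or 2 (0.0685 and 0.401 by edgeR), and the fold change was -0.11 with doublets kept. Ms4a8a in monocytes had a log2 fold change of 1.76 ± 0.55 (adjusted p = 0.0757 by edgeR), the opposite direction to the members there. In macrophages Ms4a8a had 2.24 ± 0.93 (adjusted p = 0.899 by edgeR), with 8.95 CPM in OE-Vector 1 and 69.7, 49.4 and 13.1 CPM in OE-MLKL 1, 2 and 3.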

How the data were processed

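The files the authors deposited hold unnormalized UMI counts for each gene in each barcode of 10x 3' libraries, made with Cell Ranger 7.1.0 per the file headers (2.1.1 and mm10 per the submitters' processing notes). How intronic and antisense reads were counted is not given in the sources used here, so reads of overlapping genes on opposite strands may not be separable. Groups follow the labels. The matrices of 2 of the 6 samples, OE-Vector 2 and 3, were not analysed here.

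Cells had at least 500 UMIs, more than 200 genes, under 10% mitochondrial counts and at most 5% haemoglobin counts. Doublets were removed by nearest neighbours among simulated doublets, at 0.8% per 1000 cells, which took 1893 to 4255 barcodes per library. Cells were gated by marker lists, and the gating rule was set after the data had been seen. The members and lists were chosen with earlier results of these data known. The genes named are the members, the other Ms4a genes, Tmem176a and Tmem176b, the partners Trem2, Tyrobp and Tnfrsf18, and for each member the 3 genes of highest Pearson r among those at 10 CPM or more, gate markers and the family left out. 1 further partner of that rule is not reported here.

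UMIs were summed per class and library. OE-MLKL was tested against OE-Vector with edgeR 4.0.16 (quasi-likelihood test, TMM, filterByExpr) in R 4.3.3, with Benjamini-Hochberg adjustment over all genes of a class. On simulated counts with 3 libraries against 1, genes changed 4-fold were recovered at 55.56% in monocytes and 49.46% in B cells, and genes changed 16-fold at 85.23% and 87.37%, on 3045 and 2993 genes. Of the 138 calls in simulated monocytes, 13 (9.42%) fell on unchanged genes, above the nominal 5%. Alternatives were DESeq2 1.42.0, limma-voom (limma 3.58.1), other scaling, other count filters, other cell filters, doublets kept, 4 markers in the gate and leaving out each OE-MLKL library. Intervals on counts are exact Poisson at 95% and cover counting error only. Shares at equal depth are the expected share of cells with a UMI after thinning to 500 UMIs. Gene positions are from GENCODE vM21 (GRCm38), in which 32235 of 32285 gene IDs were found.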

Additional observations from a re-analysis of the deposited data

Results flagged for a closer look

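The direction of Ms4a6c differed between classes. In macrophages all 3 OE-MLKL libraries were above OE-Vector 1, as for 33.6% of genes, with a log2 fold change of 0.23 (SE 0.39, adjusted p = 0.953 by edgeR). In B cells all 3 were below OE-Vector 1, with a mean of 12.3 CPM in the OE-MLKL libraries against 40.8 CPM. Among the genes tested in B cells 20.9% had that side, and Ms4a6c was not one of them. The B cell values rest on 14 UMIs against 2, 0 and 3, too low for the fit. They were below free RNA (82.4 to 134 CPM) in all 4 libraries. The difference between the classes was not tested.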

How the results depend on the processing

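No paired analysis was possible because the labels name no animal shared by the groups. Replicate number 1, the only number the groups share among the libraries analysed here, does not mark a pair. Of 27 fold changes followed, 24 were below 0, and 21 kept their sign under every alternative that could be fitted. All of them share OE-Vector 1, which no alternative left out, so a kept sign does not cover spread between OE-Vector tumours. Over all genes tested, the median log2 fold change of a class was 0.0249 to 0.0691 in the fits reported above. Many of the 27 are of members under free RNA in their class in all 4 libraries, and no difference is read from their sign. These are Ms4a7 in monocytes and Ms4a6c, Ms4a6d and Ms4a7 in T cells. Ms4a6b, Ms4a6c, Ms4a6d and Ms4a7 in dendritic cells and in neutrophils are also among them. In monocytes the 2 members called (1.61% of all genes called) became 0 with DESeq2 (0.115%), 1 with limma-voom (0.546%) and 0 at a mean of 20 UMIs (0.101%). They became 4 with doublets kept (5.84%), 3 with 1000 UMIs and 500 genes per cell (2.33%) and 1 with 4 markers in the gate (0.817%). Leaving out an OE-MLKL library gave 0 to 3 members in monocytes, 0 to 2 in T cells, 0 to 1 in B cells and 0 to 3 in neutrophils. In monocytes the 0 came without OE-MLKL 1, where 0.254% of all genes were called. In all 4 classes the highest count came without OE-MLKL 3, where 2.98%, 8.29%, 10.1% and 14.9% of all genes were called in the order given. Among the members called without OE-MLKL 3, Ms4a7 in monocytes and Ms4a4b in neutrophils reached the count filter through OE-Vector 1 alone. In B cells 1 member was called with 1000 UMIs and 500 genes per cell (7.25% of all genes) and 2 with doublets kept (3.8%). The mean of Ms4a1 in OE-MLKL B cells was 297 CPM with that cell filter and 260 CPM with doublets kept, and that of Ms4a4b in T cells was 372 CPM with doublets kept. With doublets kept the fold change changed sign for Ms4a6c (0.52), Ms4a6d (0.015) and Ms4a7 (0.26) in T cells, for Ms4a7 in dendritic cells (0.40) and for Ms4a6c in neutrophils (-0.048). Leaving out an OE-MLKL library changed the sign for Ms4a4c in macrophages (-0.48 to 0.0064), for Ms4a6c in T cells (-0.30 to 0.023), for Ms4a7 in T cells (-0.98 to 0.15) and for Ms4a6c in neutrophils (-0.30 to 0.39). The cause of these changes was not tested. In 5 of 7 members the class with the highest mean was the same in every setting. With 4 markers in the gate, Ms4a6c and Ms4a6d were highest in monocytes in place of macrophages (872 against 822 CPM and 396 against 355 CPM). Monocytes and B cells, with 25 to 131 cells per library, limit the depth.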
